A study of Mus musculus with 12 samples.

Results

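RNA-seq of ATDC5 cells was examined for 9 genes of cell adhesion that are commonly measured in mesenchymal cells, namely *Vcam1*, *Icam1*, *Ncam1*, *Mcam*, *Alcam*, *Thy1*, *Cdh2*, *Cdh11* and *Afdn*. They were chosen by symbol from a gene-level table of 46731 genes, and all 9 were found in it once. ATDC5 is a mouse chondrogenic line derived from teratocarcinoma cells. The 12 libraries form 4 groups of 3, all read at 6 h. shRNA-NC cells carry a stably integrated lentiviral vector with a control shRNA, and shRNA-*Ddx5* cells carry the same vector with an shRNA against *Ddx5*, which encodes an RNA helicase. Each line was measured without stimulation and with 5 ng/ml IL-1β plus 25 ng/ml TNF-α, here called the cytokines. Both shRNAs are expressed from a U6 promoter in vectors that carry puromycin resistance, and the methods describe puromycin selection for the knockdown line. The methods name a single shRNA against *Ddx5*, so that the knockdown and any other property of the selected line cannot be told apart. No animal, primary cell or unmodified ATDC5 library enters the comparison.

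Adhesion molecules fall into families that work in different ways. VCAM1, ICAM1, NCAM1, MCAM and ALCAM are membrane proteins of the immunoglobulin superfamily. VCAM1 and ICAM1 are inducible ligands of leukocyte integrins, and their transcription in many stromal and endothelial cells is driven by NF-κB after IL-1 or TNF. NCAM1 binds to itself on neighbouring cells, MCAM (CD146) and ALCAM (CD166) are used as surface markers of stromal progenitors, and THY1 (CD90) is a small lipid-anchored immunoglobulin family protein used for the same purpose. CDH2 (N-cadherin) and CDH11 (OB-cadherin) are calcium-dependent cadherins, which hold mesenchymal cells together and are coupled to actin through catenins. AFDN (afadin) is no surface molecule but the cytoplasmic scaffold that ties nectins, a further immunoglobulin family, to actin. In cartilage formation, N-cadherin and NCAM are known for their part in the condensation of the mesenchyme before chondrocytes differentiate.

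The libraries hold 14119199 to 19276520 fragments on genes, and libraries of the same group were more alike (Pearson's r 0.973 to 0.993 across genes) than libraries of different groups (0.897 to 0.961). *Ddx5* was at 294 to 337 FPKM (fragments scaled by gene length and library size) in unstimulated shRNA-NC and at 90.7 to 118 in unstimulated shRNA-*Ddx5* cells, 32.3% of the control mean, and with the cytokines it was at 301 to 327 and at 93.6 to 104, or 32.1%. The labelled cell type was checked by summed FPKM of marker genes. The 8 mesenchymal markers summed to 1478 to 3312 and the 8 chondrocyte markers to 6.11 to 42.5 over the 12 libraries, the latter almost wholly *Sox9* and *Col2a1*, while *Acan* had at most 4 fragments in any library. The 8 endothelial markers summed to 0.0404 to 0.186, with *Cdh5*, *Tie1*, *Erg* and *Emcn* at 0 in every library, and the 6 epithelial markers to at most 0.183. Fewer expressing cells and less RNA per cell cannot be told apart in these bulk libraries.

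Promoter windows of 4 of the 9 members (*Icam1*, *Mcam*, *Alcam* and *Afdn*) were examined. They came from a RefSeq table of 32851 windows on GRCm38.p6, each with 250 bases before and 50 after the annotated gene start. The windows of *Icam1* and *Mcam* are shown to set their base composition and motif matches beside the expression values. Among these 4 members *Icam1* was the one called higher with the cytokines, and *Mcam* had the largest ratio under knockdown. Both lie on the plus strand of chromosome 9, at chr9:21015690-21015989 for *Icam1* and chr9:44134408-44134707 for *Mcam*. Capitals mark matches, on either strand, to the NF-κB consensus with its first base left free and a middle base held to A or T. In *Icam1* they also mark TATAAA.
Icam1: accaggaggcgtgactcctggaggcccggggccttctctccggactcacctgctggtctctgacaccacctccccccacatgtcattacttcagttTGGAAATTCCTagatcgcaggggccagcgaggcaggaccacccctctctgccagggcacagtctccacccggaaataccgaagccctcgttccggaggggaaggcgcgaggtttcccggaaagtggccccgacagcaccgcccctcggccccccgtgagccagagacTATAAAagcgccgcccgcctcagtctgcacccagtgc
Mcam: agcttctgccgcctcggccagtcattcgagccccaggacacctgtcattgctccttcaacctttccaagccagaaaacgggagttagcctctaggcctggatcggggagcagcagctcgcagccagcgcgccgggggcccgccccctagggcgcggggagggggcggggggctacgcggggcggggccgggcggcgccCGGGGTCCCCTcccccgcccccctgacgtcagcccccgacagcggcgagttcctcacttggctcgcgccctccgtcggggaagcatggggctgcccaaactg

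The strict NF-κB consensus was in none of the 4 windows and in 8.46% of all windows. The form with a free first base, in which a middle base was also narrowed from any base to A or T, was added after the windows had been seen. This form was in the windows of *Icam1* and *Mcam* and in 13.3% of all windows. Its first match begins 154 bases before the annotated start of *Icam1* and 52 bases before that of *Mcam*. TATAAA was in the *Icam1* window only, beginning 13 bases after the annotated start, and in 13.6% of all windows. The E-box CANNTG was in the windows of *Icam1*, *Mcam* and *Alcam* and in 72.3% of all windows, while CACGTG (7.15% of all windows) and TGANTCA (7.81%) were in none of the 4. The bases G and C made up 64.7% of the window of *Icam1*, 72.7% of that of *Mcam*, 69.7% of that of *Alcam* and 83.3% of that of *Afdn*. Such matches describe letters in a short window and not binding, and the windows of *Vcam1*, *Ncam1*, *Cdh2*, *Cdh11* and *Thy1* were not analysed here.

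The members divided into 3 sets by their levels. In unstimulated shRNA-NC cells the scaffold *Afdn* was highest on the FPKM scale, at 12.01 ± 0.453 (mean ± SD, n = 3 for this and every group mean below), followed by *Cdh2* at 10.6 ± 0.890 and *Ncam1* at 3.04 ± 0.307. *Mcam* at 0.403 ± 0.0544, *Icam1* at 0.318 ± 0.123 and *Vcam1* at 0.233 ± 0.111 followed, each overlapping its neighbour in that order. *Thy1*, *Cdh11* and *Alcam* were at or near 0. In unstimulated shRNA-*Ddx5* cells *Ncam1* (8.57 ± 0.771) and *Cdh2* (8.31 ± 0.505) came first, with overlapping libraries, before *Afdn* (5.38 ± 0.472) and *Mcam* (3.34 ± 0.582). With the cytokines *Vcam1* was the most abundant member in both lines, at 68.7 ± 6.03 in shRNA-NC and 90.7 ± 3.34 in shRNA-*Ddx5* cells. The next in shRNA-NC cells were *Cdh2* (10.9 ± 0.749) and *Afdn* (10.5 ± 0.676), and in shRNA-*Ddx5* cells *Cdh2* (5.91 ± 0.269) and *Ncam1* (5.84 ± 0.445), again with overlapping libraries.

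**Figure D1:**
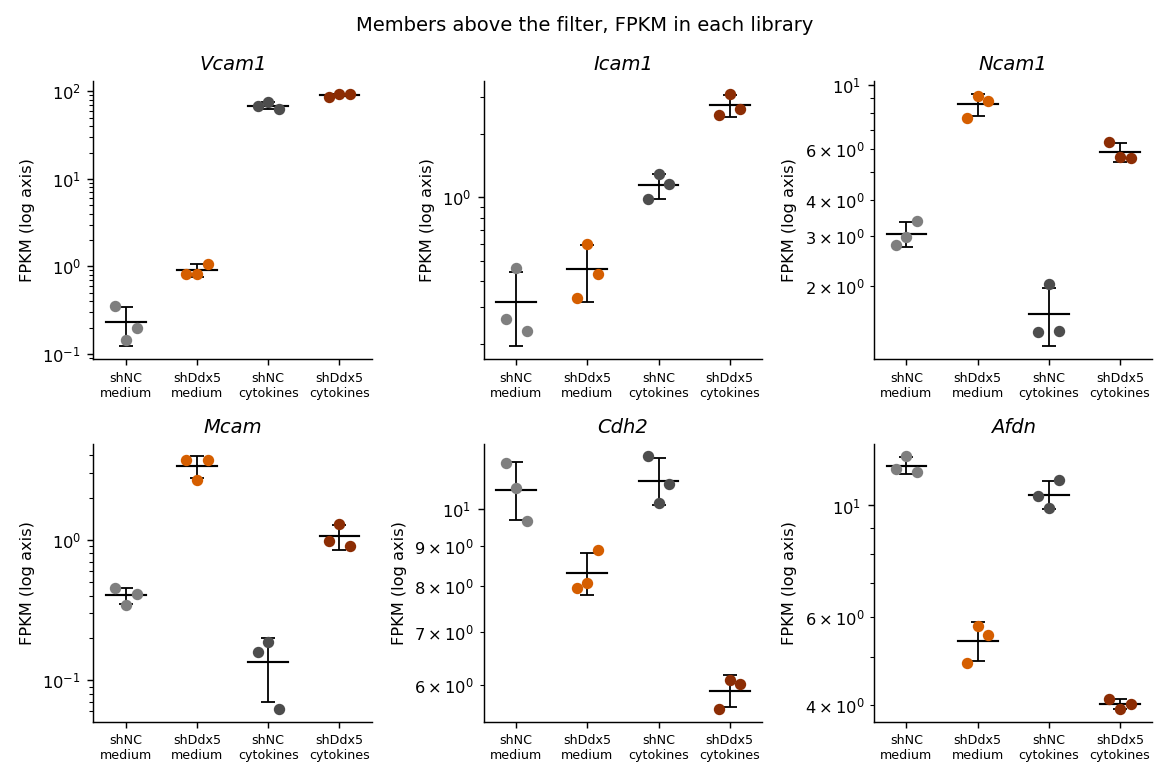
FPKM of the 6 members that passed the filter (one panel each, log axis with its own range) in the 3 libraries of each of 4 groups, where shNC stands for shRNA-NC and shDdx5 for shRNA-*Ddx5*; points are libraries, horizontal bars group means and error bars the SD. *Vcam1* sits between 62.8 and 93.1 in all 6 libraries with cytokines and between 0.145 and 1.08 in the 6 without. *Afdn*, *Ncam1*, *Mcam* and *Cdh2* separate by cell line.

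The tests below were made with limma on log2(FPKM + 1) over the 12368 genes that reached 1 FPKM in 3 or more libraries. The p-values were adjusted over all of these by Benjamini-Hochberg, and calls were made at an adjusted p under 0.05. This scale understates changes of genes near or under 1 FPKM, and ratios of mean FPKM are therefore given beside the log2 differences. Of the 9 members 6 were tested. *Ncam1*, *Cdh2* and *Afdn* were above 1 FPKM in all 12 libraries. *Vcam1*, *Icam1* and *Mcam* passed only through the groups in which they are high, in 7, 5 and 4 libraries, so that a difference between groups was built into their passing. For *Mcam* these were shRNA-*Ddx5* libraries alone, and for *Icam1* stimulated libraries alone. For *Vcam1* they were the stimulated libraries and shRNA-*Ddx5* in medium replicate 3. The knockdown tests of *Mcam* and the cytokine tests of *Icam1* and *Vcam1* therefore add no support to their values. With 3 libraries against 3 the exact permutation test of a single gene cannot give a p below 0.1, and it is not repeated for each gene.

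*Vcam1* (gene 22329, minus strand of chromosome 3, 115903669 to 115923337 on GRCm39) was the member that the cytokines changed most. Its FPKM was 0.357, 0.145 and 0.196 in the 3 unstimulated shRNA-NC libraries, from 10 to 25 fragments, and 68.4, 74.9 and 62.8 with the cytokines, from 3880 to 4768 fragments. In shRNA-*Ddx5* cells it was 0.823, 0.815 and 1.08 without and 86.9, 92.2 and 93.1 with the cytokines. The 4 groups did not overlap at any point, in the order shRNA-NC in medium, shRNA-*Ddx5* in medium, shRNA-NC with cytokines and shRNA-*Ddx5* with cytokines. Mean FPKM rose 295-fold with the cytokines in shRNA-NC cells and 100.2-fold in shRNA-*Ddx5* cells (log2 differences 5.82 ± 0.0941 SE, limma adjusted p = 1.76e-11, and 5.59, adjusted p = 9.21e-12). The denominator of the first ratio is a group of 45 fragments in all, and its size is correspondingly uncertain. Knockdown raised *Vcam1* 3.89-fold in medium (log2 difference 0.63, adjusted p = 2.87e-04) and 1.32-fold with the cytokines (log2 difference 0.40, 95% interval 0.19 to 0.61, adjusted p = 0.00501). The latter call was lost with a pseudocount of 0.1 (0.40, adjusted p = 0.110) and with quantile normalization (0.23, adjusted p = 0.0669).

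*Icam1* (gene 15894, plus strand of chromosome 9, 20927236 to 20940110 on GRCm39), the other integrin ligand and the gene of the first window above, was induced to a far lower level. Its FPKM was 0.264, 0.459 and 0.232 in unstimulated shRNA-NC cells and 0.330, 0.602 and 0.431 in unstimulated shRNA-*Ddx5* cells, from 9 to 28 fragments, and these groups overlapped. With the cytokines it was 0.976, 1.28 and 1.16 in shRNA-NC and 2.46, 3.10 and 2.61 in shRNA-*Ddx5* cells, from 42 to 127 fragments. All 6 stimulated libraries lay above all 6 unstimulated ones, and the stimulated knockdown libraries above the stimulated controls. Mean FPKM rose 3.58-fold in shRNA-NC cells (log2 difference 0.70, limma adjusted p = 7.56e-04) and 6.00-fold in shRNA-*Ddx5* cells (1.36, adjusted p = 4.06e-06). With the cytokines the knockdown cells were 2.39-fold higher (log2 difference 0.80, adjusted p = 1.94e-04). In medium the difference was 0.14 with a 95% interval of -0.11 to 0.39 (adjusted p = 0.330) and was not called. The log2(FPKM + 1) scale understates changes at these levels. Voom on fragments gave 0.51 with a wider 95% interval of -0.29 to 1.30 (adjusted p = 0.277).

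*Mcam* (gene 84004, plus strand of chromosome 9, 44045946 to 44054024) had the largest ratio of the members between the lines. Its FPKM was 0.454, 0.346 and 0.409 in unstimulated shRNA-NC cells and 3.68, 2.67 and 3.68 in unstimulated shRNA-*Ddx5* cells. With the cytokines it was 0.158, 0.187 and 0.0622 (4 to 12 fragments) in shRNA-NC and 0.972, 1.30 and 0.910 in shRNA-*Ddx5* cells. No pair of groups overlapped, and the order from low to high was shRNA-NC with cytokines, shRNA-NC in medium, shRNA-*Ddx5* with cytokines and shRNA-*Ddx5* in medium. Mean FPKM in knockdown cells was 8.31-fold that of control cells in medium (log2 difference 1.62, limma adjusted p = 2.38e-06) and 7.83-fold with the cytokines (0.86, adjusted p = 1.61e-04). *Mcam* passed the filter through shRNA-*Ddx5* libraries alone, so that these tests add no support. The cytokines lowered it to 31.8% in knockdown cells (log2 difference -1.07, adjusted p = 4.09e-05). In control cells the stimulated mean was 33.7% of the unstimulated one, and on the log2(FPKM + 1) scale that difference was -0.31 (95% interval -0.57 to -0.05, adjusted p = 0.0672), past the threshold with voom on fragments (-1.64, adjusted p = 0.0144), with a pseudocount of 0.1 (-1.13, adjusted p = 0.00730) and after scaling to the sum of fragments (-0.33, adjusted p = 0.0403). MCAM also marks pericytes, and of the 5 mural cell markers only *Cspg4* was tested, at 8.67, 3.61, 2.96 and 0.971 FPKM in the order shRNA-NC and shRNA-*Ddx5* in medium, then both with cytokines. *Cspg4* was thus lower in the knockdown cells in which *Mcam* was higher. With the cytokines the mean FPKM of both genes was lower in each line. For *Cspg4* the log2 differences were -1.33 in shRNA-NC and -1.22 in shRNA-*Ddx5* cells (limma adjusted p = 3.99e-04 and 7.06e-04). The other mural markers had at most 5 fragments in a library.

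*Ncam1* (gene 17967, minus strand of chromosome 9, 49413429 to 49710909) moved between the lines as *Mcam* did but from a higher level. Its FPKM was 2.77, 2.97 and 3.37 in unstimulated shRNA-NC cells and 7.71, 9.20 and 8.79 in unstimulated shRNA-*Ddx5* cells. With the cytokines it was 1.38, 2.03 and 1.40 in shRNA-NC and 6.36, 5.60 and 5.57 in shRNA-*Ddx5* cells. Every knockdown library was above every control library, and within each line every stimulated library was below every unstimulated one. Knockdown raised it 2.82-fold in medium (log2 difference 1.24, limma adjusted p = 9.55e-06) and 3.64-fold with the cytokines (1.40, adjusted p = 4.09e-06). The cytokines lowered it to 52.8% in shRNA-NC cells (log2 difference -0.64, adjusted p = 0.00130) and to 68.2% in shRNA-*Ddx5* cells (-0.48, adjusted p = 0.00813). NCAM1 is best known from neurons. Of the 7 neuronal markers *Tubb3* and *Map2* were tested, the summed level ranged from 4.28 to 5.87 in unstimulated shRNA-NC, 8.26 to 9.20 in unstimulated shRNA-*Ddx5*, 7.11 to 9.45 in stimulated shRNA-NC and 5.65 to 6.89 in stimulated shRNA-*Ddx5* cells, and *Rbfox3* had at most 1 fragment. That sum was higher in knockdown than in control cells in medium and lower with the cytokines, with *Tubb3* at 7.72 and 4.72 in the latter. *Map2* was at 1.51 and 2.75 in medium and at 0.592 and 0.750 with the cytokines in shRNA-NC and shRNA-*Ddx5* cells. Like *Ncam1*, it was raised by knockdown in medium (log2 difference 0.57, limma adjusted p = 0.00404) and lowered by the cytokines in both lines (-0.65 and -1.08, adjusted p = 0.00273 and 7.64e-05), and its knockdown difference with the cytokines was 0.14 (adjusted p = 0.413). *Map2* passed the filter mostly through the unstimulated groups, where it is high, so that its cytokine tests add no support. An unnamed gene model on the opposite strand overlaps *Ncam1* and had at most 8 fragments in a library.

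*Cdh2* (gene 12558, minus strand of chromosome 18), the classical cadherin of the set, fell with knockdown. Its FPKM was 11.4, 10.6 and 9.66 in unstimulated shRNA-NC cells and 7.96, 8.08 and 8.89 in unstimulated shRNA-*Ddx5* cells. With the cytokines it was 11.7, 10.2 and 10.8 in shRNA-NC and 5.60, 6.10 and 6.02 in shRNA-*Ddx5* cells. The knockdown libraries lay below the control libraries in both conditions, whereas stimulated and unstimulated shRNA-NC libraries overlapped. Knockdown cells held 78.5% of the control mean in medium (log2 difference -0.31, limma adjusted p = 0.00940) and 54.4% with the cytokines (-0.78, adjusted p = 2.66e-05). The cytokines lowered *Cdh2* to 71.1% in knockdown cells (-0.43, adjusted p = 0.00264). In control cells the difference was 0.04 with a 95% interval of -0.15 to 0.22 (adjusted p = 0.765), and its sign depended on the scaling between libraries.

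*Afdn* (gene 17356, plus strand of chromosome 17, 13980735 to 14126059) showed the largest decrease with knockdown among the members. Its FPKM was 11.8, 12.5 and 11.7 in unstimulated shRNA-NC cells and 4.85, 5.77 and 5.52 in unstimulated shRNA-*Ddx5* cells. With the cytokines it was 10.4, 9.88 and 11.2 in shRNA-NC and 4.12, 3.93 and 4.03 in shRNA-*Ddx5* cells. The knockdown and control libraries were far apart, with no knockdown library above 5.77 and no control library under 9.88. Knockdown cells held 44.8% of the control mean in medium (log2 difference -1.03, 95% interval -1.20 to -0.86, limma adjusted p = 2.96e-06) and 38.3% with the cytokines (-1.19, adjusted p = 1.11e-06). The cytokines lowered *Afdn* to 74.9% in knockdown cells (log2 difference -0.34, adjusted p = 0.00741). In control cells the stimulated libraries were at 87.6% of the unstimulated mean (-0.18, 95% interval -0.35 to -0.01, adjusted p = 0.103), a difference that passed the threshold with quantile normalization (-0.23, adjusted p = 0.0302) and after scaling to the sum of fragments (-0.26, adjusted p = 0.0323). The overlapping gene *Tcte2* on the opposite strand had at most 13 fragments in a library.

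**Figure D2:**
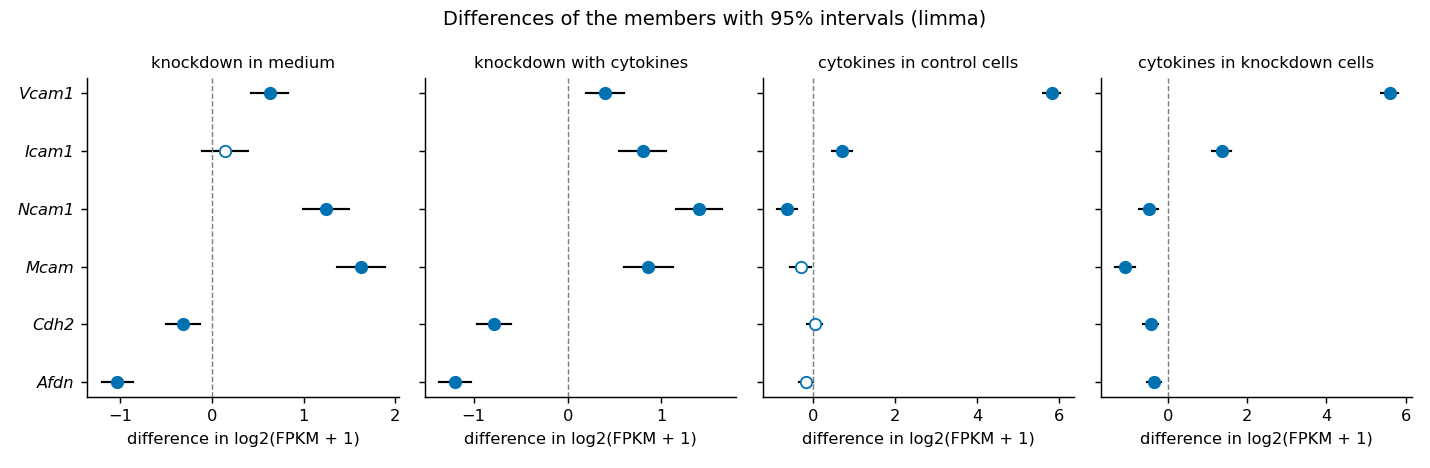
Differences in log2(FPKM + 1) of the 6 tested members with 95% intervals from limma, one panel for each of 4 comparisons and each panel with its own horizontal range; filled points passed the adjusted p threshold of 0.05 and open points did not. *Afdn* lies near -1 in both knockdown panels (-1.03 and -1.19), and *Vcam1* is apart in both cytokine panels (5.82 and 5.59).

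The remaining members, used elsewhere as markers of mesenchymal or osteoblast-lineage cells, could not be compared. *Thy1* (gene 21838, chromosome 9, 43954681 to 43959876) had 1 fragment in 4 libraries, 2 in a further one and none in 7. *Cdh11* (gene 12552, chromosome 8, 103358727 to 103512125) had 1 to 3 fragments in 7 libraries and none in 5. *Alcam* (gene 11658, chromosome 16, 52069359 to 52273444) had 2 fragments in a single library, shRNA-*Ddx5* with cytokines replicate 1, and none in the other 11. All were at or under a floor of 3 fragments, which corresponds to 0.0839 to 0.115 FPKM for *Thy1*, 0.0234 to 0.0321 for *Cdh11* and 0.0289 to 0.0396 for *Alcam*. Floors cover counting error only. At this depth no level of these genes above their floors was detected in any of the 4 groups, and no ratio is given for them.

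**Figure D3:**
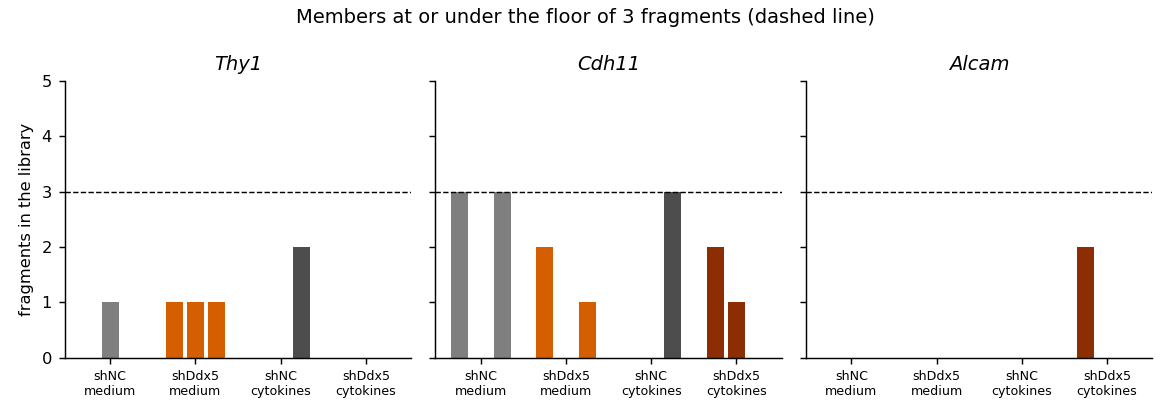
Fragments of *Thy1*, *Cdh11* and *Alcam* in each of the 12 libraries (bars in the order of replicates 1 to 3 within the 4 groups, from 0), with the floor of 3 fragments as a dashed line. No bar exceeds 3, and *Alcam* has a single bar, of 2 fragments.

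Read by comparison, knockdown in medium raised 3 of the 6 tested members (*Vcam1*, *Ncam1* and *Mcam*) and lowered 2 (*Cdh2* and *Afdn*), where 25.3% of all tested genes were higher and 21.7% lower. With the cytokines knockdown raised 4 and lowered 2, where 23.5% of all tested genes were higher and 22.1% lower. The cytokines raised *Vcam1* and *Icam1* and lowered *Ncam1* in shRNA-NC cells, with 18.6% of all tested genes higher and 15.2% lower. In shRNA-*Ddx5* cells they raised the same 2 and lowered the other 4, with 13.5% of all tested genes higher and 13.5% lower. The median differences of the 6 were 0.39, 0.60, -0.07 and -0.39 in that order, against 0.03, 0.01, 0.02 and 0.00014 over all tested genes. Because *Vcam1*, *Icam1* and *Mcam* entered the test through the groups in which they are high, these shares are no measure of how often adhesion molecules change. Scaling to the sum of fragments in place of the authors' scaling turned the split of all calls from 3131 higher and 2686 lower to 2480 and 3353 for knockdown in medium, from 2906 and 2739 to 2489 and 3126 for knockdown with the cytokines, and from 2303 and 1878 to 1850 and 2529 for the cytokines in shRNA-NC cells. With quantile normalization knockdown with the cytokines gave 2616 higher and 2922 lower, and the cytokines in shRNA-*Ddx5* cells gave 1398 higher and 2183 lower in place of 1671 and 1673, and in shRNA-NC cells 1815 and 2368.

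Whether knockdown acted differently with and without the cytokines was tested by the interaction of the 2 factors, for which 3.46% of all tested genes were higher and 4.75% lower. For *Cdh2* the knockdown effect was more negative with the cytokines by -0.47 on the log2(FPKM + 1) scale (95% interval -0.72 to -0.21, limma adjusted p = 0.0339). For *Icam1* it was more positive by 0.66 (0.31 to 1.01, adjusted p = 0.0291), and for *Mcam* it was smaller by -0.77 (-1.13 to -0.40, adjusted p = 0.0177). *Afdn* (-0.16, -0.41 to 0.08), *Ncam1* (0.16, -0.19 to 0.51) and *Vcam1* (-0.23, -0.52 to 0.06) did not pass the threshold, with adjusted p-values of 0.406, 0.598 and 0.328. These calls depended on the scale. For *Mcam* the ratios between the lines were 8.31 and 7.83, and voom on the recovered fragments gave a difference of -0.0036 (adjusted p = 0.997). For *Vcam1*, whose ratios were 3.89 and 1.32, voom gave -1.60 (adjusted p = 0.0171) and a pseudocount of 0.1 gave -1.23 (adjusted p = 0.0235). *Icam1* kept its sign but not its call with voom (0.74, adjusted p = 0.326) and with a pseudocount of 0.1 (0.77, adjusted p = 0.233). *Cdh2*, which is above 5 FPKM in every library, had nearly the same estimate on the 3 scales, and its call was lost when the replicate number was added as a block (adjusted p = 0.0759) and in 8 of the 12 fits that left out a library.

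**Figure D4:**
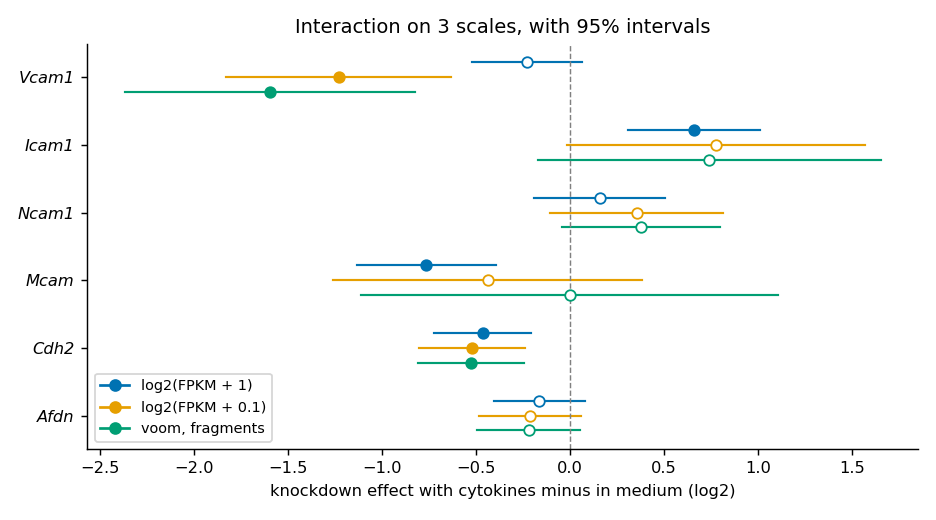
Difference between the knockdown effect with cytokines and that in medium (log2) for the 6 tested members with 95% intervals, estimated on log2(FPKM + 1), on log2(FPKM + 0.1) and by voom on recovered fragments; filled points passed the adjusted p threshold of 0.05. *Cdh2* keeps its place on the 3 scales, *Vcam1* moves from -0.23 to -1.60 and *Mcam* from -0.77 to -0.0036.

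The wider families of the members were counted from lists of related genes. Each count below stands against 25.3% of all tested genes higher and 21.7% lower for knockdown in medium and 23.5% higher and 22.1% lower for knockdown with the cytokines, and each median against 0.03 and 0.01. Nothing particular to a list is read from these counts of few genes. As with *Vcam1*, *Icam1* and *Mcam*, some of the list genes named below (*Jup*, *Arvcf*, *Lmo7*, *Ly6a*, *Nectin1*, *Pcdh19* and *Icam5*) did not reach 1 FPKM in every library. They passed the filter mostly through the groups in which they are high. Of 29 other immunoglobulin family adhesion molecules 8 were tested. Knockdown raised 2 and lowered 1 in medium, and raised 4 and lowered 2 with the cytokines, with median differences of 0.12 and 0.17. *Emb* (embigin, a membrane partner of monocarboxylate transporters) had mean FPKM of 1.596 in shRNA-NC and 9.24 in shRNA-*Ddx5* cells in medium, and 2.54 and 9.27 with the cytokines (log2 differences 1.97 and 1.56, limma adjusted p = 2.54e-06 and 1.13e-05). *Jam3*, a junctional adhesion molecule, fell from 11.8 to 6.66 and from 9.60 to 5.66 (-0.72 and -0.67, adjusted p = 3.39e-04 and 5.60e-04). *Icam5*, a further ICAM gene, passed the filter only through the stimulated knockdown group, so that its tests add no support. It had means of 0.0605 and 0.0895 in medium and 0.403 and 1.97 with the cytokines in shRNA-NC and shRNA-*Ddx5* cells. *Cd47*, which binds integrins and SIRPα, rose with the cytokines in both lines (1.43 and 1.46, adjusted p = 5.10e-06 and 3.03e-06).

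Among 28 other cadherins and protocadherins 6 were tested, and knockdown raised 3 and lowered none in medium and raised 3 and lowered 1 with the cytokines (medians 0.46 and 0.26). *Pcdh18* was at 6.24 in shRNA-NC and 16.1 in shRNA-*Ddx5* cells in medium and at 9.49 and 15.1 with the cytokines (log2 differences 1.24 and 0.62, limma adjusted p = 6.36e-07 and 5.55e-05). *Pcdh19* rose likewise, from 0.612 to 2.59 and from 0.857 to 1.89 (1.15 and 0.65, adjusted p = 2.61e-05 and 0.00123), and both went the opposite way from *Cdh2*. Of 10 catenins and cadherin linkers 8 were tested, of which knockdown raised 3 and lowered 3 in medium and raised 2 and lowered 3 with the cytokines (medians 0.05 and -0.04). *Jup* (plakoglobin) fell from 1.99 to 0.446 and from 1.41 to 0.201, and *Arvcf* (a catenin of the p120 group) from 4.16 to 1.59 and from 3.98 to 0.999 (-0.98 and -1.30, adjusted p = 4.23e-04 and 5.86e-05). *Ctnna1* (α-catenin) fell from 62.7 to 47.6 and from 56.3 to 40.5. *Ctnnb1* (β-catenin) was at 244 and 242 in medium, with a log2 difference of -0.0015 (95% interval -0.20 to 0.19), and *Vcl* (vinculin), an actin linker of the same junctions, rose from 38.8 to 62.4 and from 28.8 to 37.4 (0.68 and 0.37, adjusted p = 2.07e-04 and 0.00915).

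For afadin, 14 nectins and partners were listed and 10 tested. Knockdown raised 4 and lowered 1 in medium and raised 3 and lowered 3 with the cytokines (medians -0.10 and -0.20). *Nectin1*, a membrane ligand of afadin, fell with *Afdn*, from 2.10 to 0.944 and from 1.96 to 0.505 (log2 differences -0.66 and -0.97, limma adjusted p = 0.00370 and 3.04e-04). The other tested nectins did not fall in this way. *Nectin3* was called higher in medium (0.31, limma adjusted p = 0.0445) and was not called with the cytokines (-0.17, adjusted p = 0.263). *Nectin2* was called higher with the cytokines (0.42, adjusted p = 0.0377) and was not called in medium (-0.20, adjusted p = 0.302). *Lmo7* and *Ssx2ip*, cytoplasmic partners, rose in medium, the first from 0.473 to 1.45 and the second from 16.0 to 20.8. The cytokines raised *Pvr*, a nectin-like receptor, from 6.97 to 23.7 in shRNA-NC and from 6.08 to 13.2 in shRNA-*Ddx5* cells (log2 differences 1.61 and 1.00, limma adjusted p = 1.77e-05 and 5.26e-04).

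Of the integrin chains that bind VCAM1 or ICAM1 on leukocytes, *Itga4* had at most 2 fragments in a library, *Itgam* 1 and *Itgal* 21. *Itgb7* and *Itga9*, chains of other VCAM1 receptors, had at most 42 and 47 fragments, with group means up to 0.324 and 0.345 FPKM. *Itgb2*, the common chain of the leukocyte receptors of ICAM1, had at most 34 fragments. Its group means were 0.0811 and 0.102 in medium and 0.505 and 0.349 with the cytokines in shRNA-NC and shRNA-*Ddx5* cells. In medium *Itgb2* was thus below *Vcam1* (0.233 and 0.905) and *Icam1* (0.318 and 0.454) in both lines. The general leukocyte marker *Ptprc* and the T cell marker *Cd3e* were at 0 in every library. The 7 leukocyte markers summed to 0.174 to 0.316 FPKM in unstimulated shRNA-NC and to 1.14 to 1.66 in unstimulated shRNA-*Ddx5* cells, mostly from *Lyz2* (at most 23 fragments in a library) and *Csf1r* (at most 31), and to 0.438 to 0.766 and 0.864 to 1.505 with the cytokines. Of the 14 integrin partners and membrane linkers 6 were tested, of which knockdown raised 2 and lowered 2 in medium and raised 1 and lowered 3 with the cytokines (medians -0.08 and -0.30). *Ezr* (ezrin), which links ICAM1 and VCAM1 to actin, fell from 32.4 to 14.8 and from 43.0 to 20.4 (-1.08 and -1.04, limma adjusted p = 1.16e-05 and 1.39e-05), and *Itgb1*, the common β1 integrin chain, rose from 93.0 to 160.0 and from 105 to 147 (0.78 and 0.49, adjusted p = 5.69e-05 and 0.00122).

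Of 10 selectins, selectin ligands and sheddases 5 were tested, and knockdown raised none and lowered 3 in medium and 2 with the cytokines (medians -0.69 and -0.28). *Selp* (P-selectin), best known from platelets and endothelium, was at 26.2 FPKM in shRNA-NC and 14.1 in shRNA-*Ddx5* cells in medium and at 98.3 and 60.4 with the cytokines, against endothelial markers at or near 0. It rose with the cytokines in both lines (log2 differences 1.87 and 2.03, limma adjusted p = 4.43e-08 and 1.68e-08), as *Vcam1* did, and fell with knockdown in both conditions (-0.85 and -0.69, adjusted p = 2.03e-05 and 7.78e-05), unlike *Vcam1*. *Adam9*, a membrane protease, fell from 27.1 to 15.2 and from 22.7 to 15.6. Of 18 other mesenchymal surface molecules 14 were tested, of which knockdown raised 4 and lowered 1 in medium and raised 8 and lowered 2 with the cytokines (medians 0.22 and 0.37), and 4 of 14 is close to the 25.3% of all tested genes. *Ly6a* (Sca-1) was at 0.147 in shRNA-NC and 4.40 in shRNA-*Ddx5* cells in medium and at 0.224 and 4.88 with the cytokines (2.23 and 2.27, adjusted p = 1.35e-06 and 1.16e-06). It passed the filter through the knockdown groups alone, so that its knockdown tests add no support. *Cd44*, the hyaluronan receptor, rose with the cytokines from 25.2 to 129 in shRNA-NC and from 29.6 to 104.9 in shRNA-*Ddx5* cells. *Pdgfrb* was at 30.6 and 34.1 in medium and at 15.9 and 41.8 with the cytokines, with an interaction of 1.23 (adjusted p = 0.0119).

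**Figure D5:**
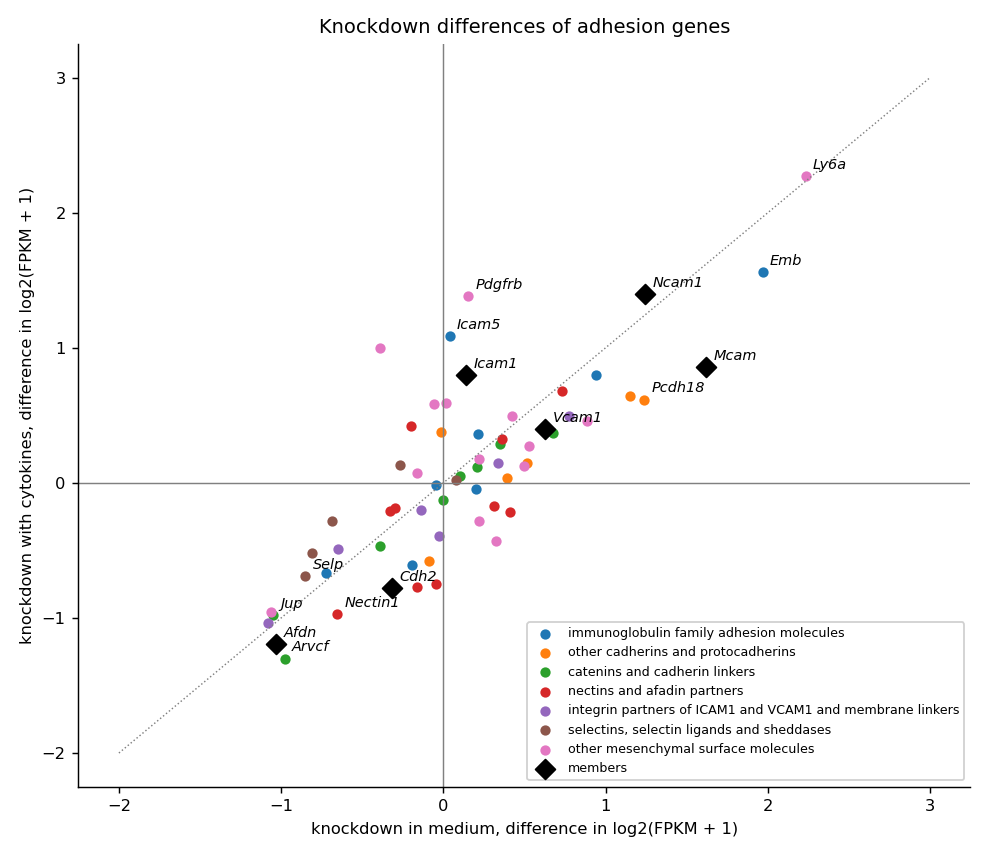
Knockdown differences in log2(FPKM + 1) in medium (horizontal) and with cytokines (vertical) for the tested genes of 7 lists of adhesion genes (coloured points) and the 6 tested members (black diamonds); the dotted line marks equal differences. *Ly6a* and *Emb* lie farthest up (2.27 and 1.56 with cytokines), *Afdn* lies with *Jup* and *Arvcf* at the lower left, and *Icam1* lies above the line.

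The genes most like each member were found by Pearson's r with it over the 12 libraries on the log2(FPKM + 1) scale, as a description in which all points share the same libraries and groups. *Vcam1* was most like *Ccl2* (r = 0.996), *Lrig1* and *Nfkbib*. *Ccl2*, a monocyte chemokine, was at 1.82 and 7.58 FPKM in medium and at 1018 and 2129 with the cytokines in shRNA-NC and shRNA-*Ddx5* cells. *Icam1* was most like *Usp18* (r = 0.988), *Irgm2* and *Oasl2*, which are known as interferon-induced genes, and *Usp18* was at 0.488, 1.24, 3.96 and 19.1 in the order shRNA-NC and shRNA-*Ddx5* in medium, then both with cytokines. *Ncam1* was most like *Col11a1* (r = 0.993), a fibrillar collagen gene, then *Igfbp5* and *Slc1a3*. *Mcam* was most like *Sp7* (r = 0.982), which encodes the osteoblast factor osterix and was at 2.62, 28.3, 0.617 and 4.68 in the same order, then *Sh3rf2* and *Pth1r*. *Cdh2* was most like *Pmepa1* (r = 0.975), *Aox1* and *Rtf1*, and *Afdn* most like *Gramd4* (r = 0.994), *Ppm1l* and *Acvr2b*. Among the members themselves the closest pairs were *Afdn* and *Cdh2* (r = 0.923), *Mcam* and *Ncam1* (r = 0.920) and *Icam1* and *Vcam1* (r = 0.886).

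The cell markers moved with the same comparisons. The summed chondrocyte markers were 37.0 to 42.5 FPKM in unstimulated shRNA-NC, 23.9 to 28.1 in unstimulated shRNA-*Ddx5*, 12.1 to 17.3 in stimulated shRNA-NC and 6.11 to 6.96 in stimulated shRNA-*Ddx5* cells. In medium the fall with knockdown lay mostly in *Col2a1* (12.4 to 0.899). *Sox9*, the largest term there, was at 27.5 and 24.1 and was not called (log2 difference -0.19, limma adjusted p = 0.0947). *Col9a1* and *Hapln1* were at 0 in both shRNA-NC groups and at means of at most 0.207 and 0.110 in shRNA-*Ddx5* cells. The mesenchymal markers summed to 2144 to 2665, 3116 to 3312, 1478 to 1676 and 2127 to 2403 in the same order of groups. Their largest terms, *Col1a2* and *Vim*, moved in opposite directions with knockdown. In that order *Col1a2* was at 499, 1738, 319 and 1321, and *Vim* at 1641, 1221, 1094 and 685. The part of these shifts, and of those of the neuronal, mural and leukocyte markers given above, in the differences of the adhesion genes was not tested.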

How the data were processed

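ATDC5 RNA-seq libraries (12, 3 per group) were grouped by their labels. The members and gene lists were chosen with earlier results of these data known. Fragments per gene were counted by the authors with featureCounts (version 1.5.0-p3 in the submitters' processing notes, which also list HISAT2 2.0.5, DESeq2 1.20.0 and mm10) and deposited FPKM with gene lengths (in bases), NCBI gene numbers and coordinates, which are those of GRCm39 sequences by their accessions. Strandedness is not given in the sources used here, and a gene-level value does not separate isoforms. Within a library, FPKM multiplied by length took only whole multiples of a common unit (100% of values, tolerance 0.01), and these multiples are the fragments. Their sums are the depths given.

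Genes that reached 1 FPKM in 3 or more libraries entered limma 3.58.1 (trend, R 4.3.3) on log2(FPKM + 1) with 4 group means and Benjamini-Hochberg adjustment. The authors tested counts with DESeq2, and the test here was set to the deposited unit. The script was tested on simulated data. The text names all 9 members, *Ddx5*, from each list and comparison at most the 4 genes with the largest difference among those past the threshold whose groups do not overlap, and the 3 genes most like each tested member. Marker genes and genes of the integrin list that were not tested, *Ctnnb1* in medium, and *Nectin2* and *Nectin3* under knockdown were named outside this rule after their values were seen. Voom on the fragments called 5966, 5731, 4390, 3419 and 855 genes for knockdown in medium, knockdown with cytokines, cytokines in control cells, cytokines in knockdown cells and the interaction, against 5817, 5645, 4181, 3344 and 1016. The study describes the 3 libraries of a group as biologically independent experiments. They share a transduced line, so p-values measure the spread between experiments on that line. Figures were made in Python 3.11.15 (matplotlib 3.10.9).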

Additional observations from a re-analysis of the deposited data

Results flagged for a closer look

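The knockdown effects in medium and with the cytokines differed by the limma interaction test (adjusted p threshold 0.05) for *Cdh2* (-0.466 on the log2(FPKM + 1) scale), *Mcam* (-0.765) and *Icam1* (0.658). In ratios of mean FPKM the *Cdh2* difference corresponds to 78.5% of control in medium against 54.4% with the cytokines, and its call was lost with the replicate number as a block (adjusted p = 0.0759) and in 8 of 12 fits that left out a library. That of *Icam1* corresponds to 1.43-fold, from overlapping groups (adjusted p = 0.330), against 2.39-fold, and its call was lost with voom (adjusted p = 0.326), with a pseudocount of 0.1 (adjusted p = 0.233) and in 7 of the 12 fits. For *Mcam* the ratios of 8.31 and 7.83 were close on the linear scale, and the interaction was not seen with voom (-0.0036).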

How the results depend on the processing

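Of 564 single-member results under the alternatives, 526 kept direction and side of the threshold, 26 lost the call, 8 gained it and 4 changed sign. The sign changes all concerned *Cdh2* with cytokines in control cells, a difference that was not called: -0.013 with quantile normalization, -0.042 after scaling to the sum of fragments, and -0.022 and -0.011 without shRNA-NC in medium replicate 3 and without shRNA-NC with cytokines replicate 1, within a range of -0.022 to 0.089 over the 12 fits that left out a library. Scaling to the sum of fragments called 5 members for the cytokines in control cells in place of 3. Leaving out each library in turn kept 5, 6 and 6 members called for knockdown in medium, knockdown with cytokines and cytokines in knockdown cells, and 3 to 4 for cytokines in control cells. For the interaction it left 0 to 3 members, and 559 to 1123 of all genes against 1016. None was called without shRNA-*Ddx5* replicate 3 in medium or with cytokines, and 1 without shRNA-NC in medium replicate 2, shRNA-NC with cytokines replicate 1 or 3, or shRNA-*Ddx5* with cytokines replicate 1 or 2. All genes called were 628 without shRNA-NC in medium replicate 2, 600 without shRNA-*Ddx5* in medium replicate 3, and 610, 632 and 559 without shRNA-*Ddx5* with cytokines replicates 1, 2 and 3. *Icam1* lost the interaction in 7 of these 12 fits and with no filter (adjusted p = 0.0511), and *Mcam* in 3. Pooled over all groups, same-numbered libraries did not deviate together (mean correlation -0.045, over 0.1 in 4 of 18 pairs), and the numbers are not read as pairs. The pooled mean does not settle single pairs of groups. For replicates 1, 2 and 3 the correlations were 0.45, 0.043 and 0.31 between the unstimulated groups. Between unstimulated and stimulated shRNA-NC they were -0.37, 0.12 and -0.29. A replicate block called 5452, 5232, 3769, 2902 and 687 genes for the 5 comparisons and changed no member's call other than that of *Cdh2* in the interaction. Depth limits *Vcam1*, *Icam1* and *Mcam* where they rest on at most 32 fragments a library, and *Thy1*, *Cdh11* and *Alcam* throughout.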
